A study of Mus musculus with 12 samples.

Results

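A set of 10 germline genes whose promoters are known to be methylated in most somatic cells were followed in mouse embryonic stem cells (ESCs) in which the Yes-associated protein (YAP) had been lowered or raised. They were Dazl, Ddx4, Mael, Asz1, Stk31, Sycp1, Sycp3, Hormad1, Slc25a31 and Tex101. The names were chosen with earlier results of these data known, so the set is not independent of the data. All 10 were found by symbol among the 24480 genes of the deposited tables. The study linked YAP to Dnmt3l, a cofactor of the enzymes that set new DNA methylation, so RNA of genes that depend on this mark served here as a readout. DNA methylation itself was not analysed here.

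The cells were of the E14Tg2a line, grown without feeder cells in serum with leukemia inhibitory factor, and all received their agent by transient lipid transfection. YAP KD cells received siRNAs against mouse Yap1, and their controls, CTR KD, received scrambled siRNAs. YAP OE cells received a plasmid with mouse YAP under the CAG promoter, and their controls, CTR OE, received a plasmid that encodes GFP per the labels and is an empty vector per the study's methods. Each of the 4 groups had 3 libraries of total RNA from independent experiments, 12 in all, and no control library was shared. No sorting of transfected cells is stated, and in such bulk samples fewer cells that express a gene and less RNA per cell cannot be told apart.

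Germline genes of this kind carry CpG-rich promoters that gain methylation around implantation and stay silent in the soma. They are released when methylation is erased in primordial germ cells, and a polycomb complex named PRC1.6, which reaches DNA through E2F6 and DP1 and through MGA and MAX, holds many of them down in ESCs. Methyltransferases DNMT3A and DNMT3B set the mark with the help of DNMT3L, which has no catalytic activity, and DNMT1 copies it at replication. Of the 10 genes, Dazl and Ddx4 encode RNA regulators of germ cells, and Mael and Asz1 act in the piRNA pathway that silences transposons. Sycp3 and Hormad1 build or read the meiotic chromosome axis, and Sycp1 joins paired chromosomes. Slc25a31, Tex101 and Stk31 encode proteins found mainly in the testis.

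The promoters are shown first because they hold the CpGs on which such silencing acts. The windows are the 300 bases from 250 before to 50 after the start of each gene in RefSeq (GRCm38.p6), written 5′ to 3′ on the strand of the gene, and all 10 genes had one. Mael, the gene that moved in these data, Sycp3, the most abundant and the poorest in CpG, Asz1, which was almost not detected, and Ddx4, the richest in CpG, are given with each CpG in capitals. Their windows lie at chr1:166238695-166238994 (minus strand), chr10:88459337-88459636 (plus strand), chr6:18109012-18109311 (minus strand) and chr13:112652261-112652560 (minus strand).
Mael: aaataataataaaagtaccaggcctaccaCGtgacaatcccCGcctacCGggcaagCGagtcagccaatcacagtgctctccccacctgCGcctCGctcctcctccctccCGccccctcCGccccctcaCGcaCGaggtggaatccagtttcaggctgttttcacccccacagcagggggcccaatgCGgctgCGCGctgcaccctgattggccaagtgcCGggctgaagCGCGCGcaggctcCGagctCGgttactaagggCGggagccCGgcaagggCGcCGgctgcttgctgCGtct
Sycp3: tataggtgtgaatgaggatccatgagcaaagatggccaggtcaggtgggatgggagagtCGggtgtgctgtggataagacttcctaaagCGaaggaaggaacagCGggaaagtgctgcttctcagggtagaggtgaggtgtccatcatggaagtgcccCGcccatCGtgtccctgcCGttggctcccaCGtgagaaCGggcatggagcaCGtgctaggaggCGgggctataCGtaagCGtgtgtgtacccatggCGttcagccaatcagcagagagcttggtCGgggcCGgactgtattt
Asz1: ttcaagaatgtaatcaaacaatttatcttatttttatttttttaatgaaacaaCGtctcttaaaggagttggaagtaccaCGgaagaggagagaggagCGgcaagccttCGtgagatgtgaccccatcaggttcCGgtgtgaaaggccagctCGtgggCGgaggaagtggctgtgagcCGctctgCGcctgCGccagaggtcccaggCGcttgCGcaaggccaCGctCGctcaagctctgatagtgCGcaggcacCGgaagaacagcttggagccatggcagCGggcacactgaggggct
Ddx4: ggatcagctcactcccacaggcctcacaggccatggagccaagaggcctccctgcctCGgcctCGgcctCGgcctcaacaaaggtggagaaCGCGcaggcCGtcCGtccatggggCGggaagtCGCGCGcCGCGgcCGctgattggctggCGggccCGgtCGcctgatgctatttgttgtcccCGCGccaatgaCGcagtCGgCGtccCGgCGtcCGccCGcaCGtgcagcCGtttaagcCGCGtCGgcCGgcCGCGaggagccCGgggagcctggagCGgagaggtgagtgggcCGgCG

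CpG counts in these windows were 24 for Mael, 15 for Sycp3, 17 for Asz1 and 38 for Ddx4. The others had 19 in Tex101, 21 in Sycp1, 22 in Slc25a31, 24 in Hormad1, 28 in Dazl and 29 in Stk31. The median was 23 in the 10 genes and 13 in the promoters of 17449 genes of the tables, and the ratio of observed to expected CpG was 0.789 and 0.576. Hormad1 and Stk31 have 2 listed starts each, and the first was used. The gene that was almost silent and the gene with the most RNA thus had nearly the same number of CpGs.

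**Figure D1:**
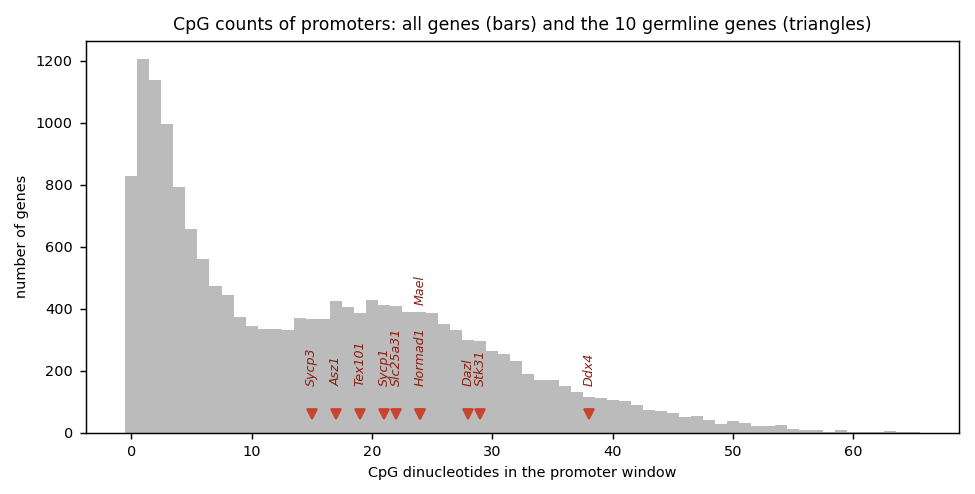
Number of genes (y axis) by the count of CpG dinucleotides in the promoter window (x axis), for 17449 genes (bars), with the 10 germline genes as triangles placed at their count on the x axis. The triangles run from 15 in Sycp3 to 38 in Ddx4, all above the median of 13 over all genes.

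Letters known from binding sites of E2F (TCCCGC, read on both strands) and of the E-box that MGA and MAX can bind (CACGTG, the same on both strands) were searched in the windows, and no copy of one overlapped the other. At least 1 TCCCGC stood in 6 of the 10 promoters and in 25.7% of all promoters. CACGTG stood in 7 of the 10 and in 8.16% of all promoters, and both stood in 6 of the 10, Ddx4, Hormad1, Mael, Slc25a31, Sycp1 and Sycp3, against 2.76% of all. Dazl, Asz1 and Tex101 held neither in these windows. Both motifs contain a CpG, and the 10 promoters had more CpGs than the median promoter. Promoters of like CpG count were not compared. Hormad1 (chr3:95559427-95559726, plus strand) and Sycp1 (chr3:102936051-102936350, minus strand) are given with the matches in capitals, to show how both motifs lie near the start.
Hormad1: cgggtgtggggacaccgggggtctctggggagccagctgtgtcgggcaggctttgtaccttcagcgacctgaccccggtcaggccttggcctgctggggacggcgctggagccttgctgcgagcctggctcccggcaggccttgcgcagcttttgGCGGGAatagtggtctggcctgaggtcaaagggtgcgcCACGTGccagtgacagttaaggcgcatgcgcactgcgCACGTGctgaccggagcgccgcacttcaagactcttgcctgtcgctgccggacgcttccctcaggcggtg
Sycp1: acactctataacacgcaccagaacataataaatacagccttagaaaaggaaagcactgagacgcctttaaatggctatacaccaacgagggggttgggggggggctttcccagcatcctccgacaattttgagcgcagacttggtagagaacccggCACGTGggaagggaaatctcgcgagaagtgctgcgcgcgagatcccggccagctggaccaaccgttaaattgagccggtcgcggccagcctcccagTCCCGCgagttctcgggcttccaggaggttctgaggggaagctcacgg

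In Hormad1, the E2F letters began 95 bases and the E-boxes 57 and 20 bases before the start. In Sycp1, the E-box began 94 bases before the start and the E2F letters 2 bases after it. Mael held an E-box 223 bases before the start, E2F letters 143 bases before it and a further copy 11 bases after it. These are matches of letters only, and binding was not measured.

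Despite their reputation for silence, most of these genes had readable RNA in undifferentiated ESCs. Libraries held from 4.29e+07 to 5.72e+07 expected counts, that is, reads assigned to genes by estimation, and the 10 genes together took from 3580 to 5000 of them, or 0.0075% to 0.00948%. To compare genes, counts were expressed as CPM, that is, relative to library size after scaling by TMM factors, and divided by the effective length in kilobases. On this scale the level of Sycp3, a component of the axial elements of meiotic chromosomes, was 42.5 ± 4.01 CPM per kilobase in CTR KD (SD, n = 3), above 90.3% of the 18971 genes with any count there. Hormad1, which marks unsynapsed axes, had 4.69 ± 0.880, Mael 4.02 ± 0.0683 and Ddx4 3.72 ± 0.177. Dazl had 2.73 ± 0.152, Stk31 2.53 ± 0.488 and Sycp1 1.84 ± 0.5005, all near the middle of expressed genes. Slc25a31, with 0.502 ± 0.0526, and Tex101, with 0.253 ± 0.0408, were low, and Asz1 had 0.0131 ± 0.00100. Asz1 was thus barely detected, while the other 9 genes had reads in every library, and how many cells these came from was not measured. They are called germline genes here rather than silenced genes.

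The order of levels per kilobase was nearly the same in all groups, but neighbours were not always separate. In CTR KD, the ranges of 3 libraries overlapped between Hormad1 and Mael, between Dazl and Stk31 and between Stk31 and Sycp1, and no other neighbours overlapped. Mael had rank 3 in CTR KD, rank 4 in YAP KD and CTR OE and, with 5.35 ± 0.178 CPM per kilobase, rank 2 in YAP OE, where its libraries lay above all those of Hormad1. Tex101 passed Slc25a31 in YAP OE, with 0.724 ± 0.122 and 0.665 ± 0.0746, but their ranges overlapped.

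**Figure D2:**
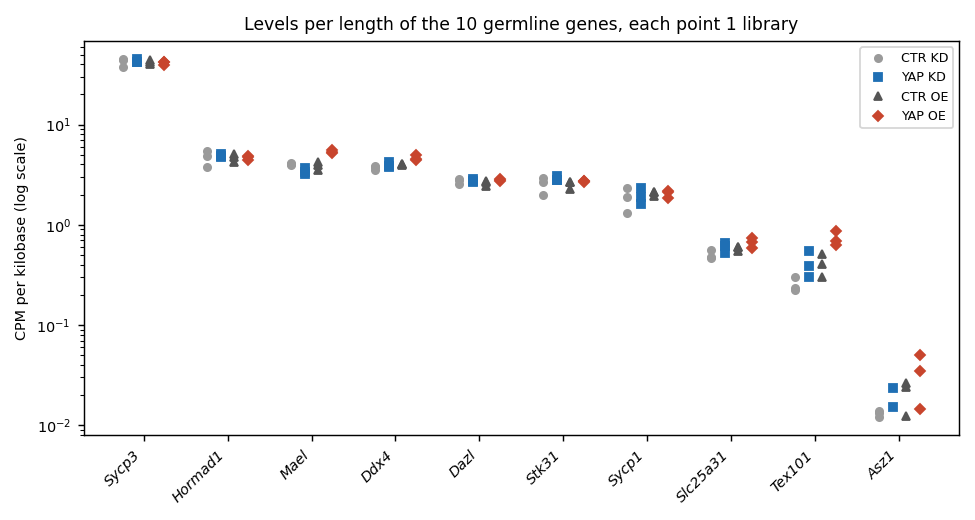
Level in CPM per kilobase of effective length (y axis, log scale) of the 10 germline genes (x axis, ordered by CTR KD), 1 point for each library, with a symbol and colour for each group. Sycp3 stands near 42 and Asz1 below 0.05 in every group, and the library of YAP KD with no Asz1 count is not drawn because a log axis has no 0.

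The agents did what the labels say. Yap1 (chromosome 9, 7931999 to 8004638) fell from 124.9 ± 9.16 to 56.5 ± 1.72 CPM in the knockdown and rose from 133.0 ± 1.96 to 260 ± 16.8 CPM in the overexpression. Dnmt3l (chromosome 10, 78042287 to 78063622) had 279, 275 and 261 CPM in CTR KD and 184, 176 and 182 in YAP KD, and the log2 fold change was -0.59 (adjusted p = 0.000121932 in edgeR, SE 0.0421). It had 327, 311 and 306 CPM in CTR OE and 386, 362 and 392 in YAP OE, and the log2 fold change was 0.27 (adjusted p = 0.00399417 in edgeR, SE 0.0452). Dnmt3l therefore moved with YAP in both directions, although the call in YAP OE was lost without CTR OE replicate 3, where the log2 fold change was 0.25 (edgeR adjusted p = 0.0523). The other 10 genes of the methylation machinery, among them Dnmt1, Dnmt3a, Dnmt3b and Tet1 to Tet3, did not pass the test in either experiment. Dnmt3a, named after its values were seen, passed that of the difference between the experiments at -0.27 (SE 0.0665), but not without CTR KD replicate 3 or without CTR OE replicate 1, and it was called in YAP KD in a fit over all 12 libraries and when CTR KD replicate 2 was left out.

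What the germline genes did was tested in each experiment over all genes with enough reads by the quasi-likelihood test of edgeR, and a gene with an adjusted p under 0.05 was called. After the knockdown none of the 9 genes that could be tested was called, while 5.49% of the 14606 genes tested were. At an unadjusted p under 0.05 there were 2, Mael and Tex101, against 2868 of the 14606 genes tested. DESeq2 and limma-voom also called 0 of the germline genes. After the overexpression 1 of 9 was called, Mael, which was higher, while 2.13% of the 14804 genes tested were called in either direction and 1.66% as higher. At an unadjusted p under 0.05 there were 3, Mael, Ddx4 and Tex101, against 1945 of the 14804 genes tested. Asz1 had too few reads for the test.

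Mael (chromosome 1, 166201385 to 166238744) encodes Maelstrom, a protein of germ granules needed to silence transposons in the male germline. It had 248, 299 and 267 expected counts in CTR KD and 185, 201 and 270 in YAP KD. Scaled to library size these were 5.43, 5.61 and 5.51 CPM and 4.37, 4.56 and 5.03 CPM, so that every YAP KD library lay below every control. The log2 fold change was -0.24 (SE 0.0828, 95% interval -0.43 to -0.057), or 84.4% of the control mean, with a p of 0.0157388 but an edgeR adjusted p of 0.136266, which did not pass. Among the 9 genes it was the single one whose YAP KD libraries all lay lower, a pattern that 12.7% of all genes tested showed.

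In the overexpression, Mael had 299, 265 and 256 expected counts in CTR OE and 363, 332 and 407 in YAP OE, or 5.78, 5.44 and 4.87 CPM against 7.06, 7.62 and 7.28 CPM. The groups were well apart. Mean expression was 5.37 ± 0.461 CPM and 7.32 ± 0.282 CPM (SD, n = 3), so that YAP OE stood at 136% of its control, with a log2 fold change of 0.45 (SE 0.0832, 95% interval 0.27 to 0.62, edgeR adjusted p = 0.00890817). Without CTR OE replicate 3, the control with the lowest Mael, the log2 fold change was 0.38 and the edgeR adjusted p was 0.0700, so the call rests in part on that library. It is the same library on which the Dnmt3l call depended. Over all genes, 154 were called without it in place of 316, and 168 and 181 without CTR OE replicate 1 or 2.

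The responses to loss and gain of YAP were then compared directly, by testing the difference of the log2 fold changes over all 12 libraries. For Mael the difference was 0.69 (SE 0.113, 95% interval 0.45 to 0.93, edgeR adjusted p = 0.00120332). It was the single call among the 9 genes, while 8.8% of 15049 genes tested were called, and it stayed called without any single library, between 0.62 and 0.75. For the other 8 genes the difference had an edgeR adjusted p between 0.483177 and 0.934879. Dnmt3l had a difference of 0.86 (SE 0.0606) on the same scale.

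**Figure D3:**
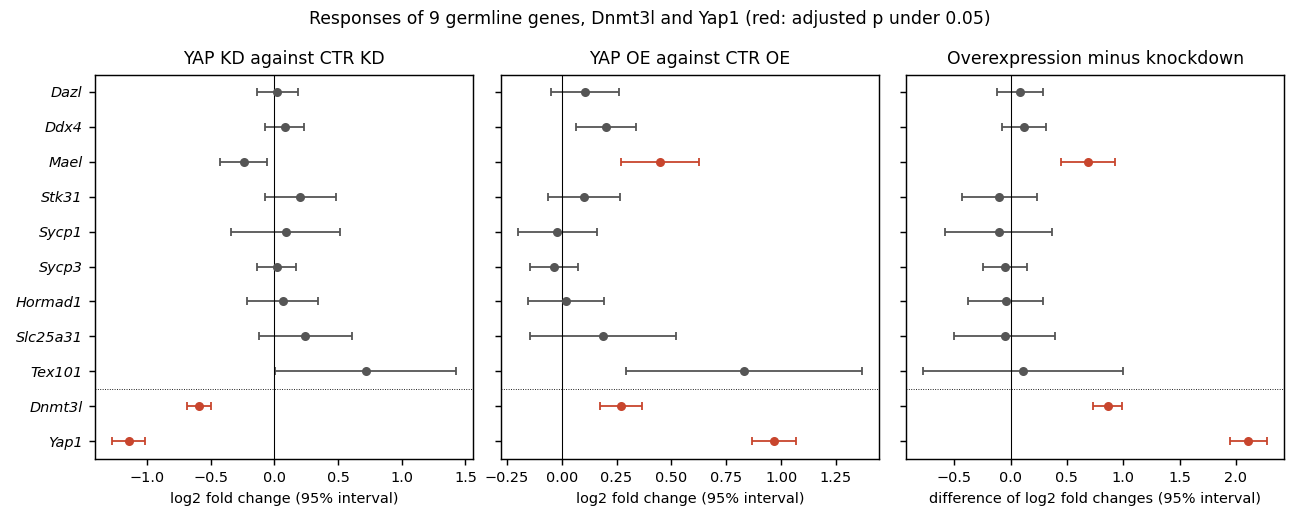
Log2 fold change with its 95% interval (x axis) of 9 germline genes, Dnmt3l and Yap1 (y axis) in YAP KD against CTR KD (left), in YAP OE against CTR OE (middle) and as the difference of both (right), each from 3 libraries a group, with calls in red. Among the germline genes Mael alone is red, in the overexpression at 0.45 and in the difference at 0.69.

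Mael was set beside markers of other cell states in these libraries, whether or not they moved with YAP. Markers of the rare two-cell-like state of ESC cultures, 9 genes that include Zscan4c, Zscan4d and Zscan4f, summed to 30.8 to 37.5 CPM in CTR KD, 25.7 to 26.3 in YAP KD, 33.9 to 42.4 in CTR OE and 51.4 to 60.9 in YAP OE, and none of the 9 was at 0 in a group. Of these, 1 of 6 tested was called lower in YAP KD, Zscan4f at -0.39 (SE 0.0883), and 3 of 8 were called higher in YAP OE, at 0.50 (SE 0.0879) for Zscan4c, 0.70 (SE 0.117) for Zscan4d and 0.63 (SE 0.0713) for Zscan4f. The calls in YAP OE held without each library in turn, while that of Zscan4f in YAP KD was lost without CTR KD replicate 3 or any 1 of the 3 YAP KD libraries, with total counts in place of TMM and with the replicate number as a block, and 3 were called without CTR KD replicate 2. These 3 share reads with close copies, as their counts were not whole in any of the 12 libraries. Their sum thus separated the groups as Mael did, and its part in the result for Mael was not tested. Trophoblast markers, 7 genes, summed to 43.9 to 49.7 CPM in CTR OE and 58.8 to 74.3 in YAP OE, with Cdx2, Gata3 and Krt18 called higher, and to 29.0 to 33.2 in CTR KD and 33.6 to 33.8 in YAP KD, with 0 of 3 tested called by edgeR and 1 at an unadjusted p under 0.05. Their part was not tested either. ESC markers such as Pou5f1, Sox2 and Nanog summed to group means between 5169 and 5444 CPM with 0 of 8 called by edgeR in either experiment, and 5 and 2 at an unadjusted p under 0.05. The 7 primitive endoderm markers summed to 6.24 to 7.74 CPM in CTR OE and 7.97 to 8.79 in YAP OE, which did not overlap, and to 6.51 to 7.45 in CTR KD and 6.99 to 8.60 in YAP KD, which did. Of these Dab2 alone was called, higher in YAP OE. The 7 fibroblast markers summed to 1.88 to 2.21 CPM in CTR KD and 2.44 to 3.16 in YAP KD, which did not overlap, and to 2.50 to 3.12 in CTR OE and 2.72 to 2.91 in YAP OE, which did, with 0 of 4 tested called by edgeR in either experiment and 2 and 0 at an unadjusted p under 0.05. The part of these sums in the result for Mael was not tested. Over all genes tested, 5.49% were called in YAP KD, and in YAP OE 2.13% were, 1.66% as higher. At an unadjusted p under 0.05 these were 2868 of 14606 and 1945 of 14804 genes. Single genes lay lower without overlap in YAP KD in 12.7% and higher in YAP OE in 10.3%. How often sums of as many genes separate was not computed. The marker lists were chosen with earlier results of these data known.

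**Figure D4:**
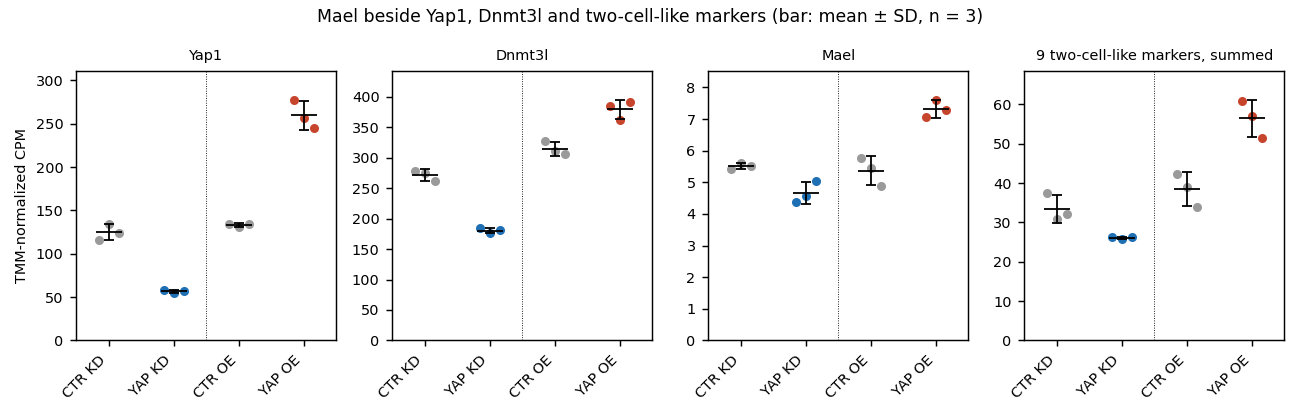
TMM-normalized CPM (y axis, from 0) of Yap1, Dnmt3l, Mael and the sum of 9 two-cell-like markers in the 4 groups (x axis), with points for libraries and a bar for the mean ± SD (n = 3). In each panel the YAP KD points lie below the CTR KD points and the YAP OE points above the CTR OE points.

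Ddx4, the germ cell RNA helicase also called Vasa (chromosome 13, 112598333 to 112652633), was the most abundant of the 10 genes after Sycp3 in CPM, and did not pass the test. It had 465, 500 and 496 expected counts in CTR KD and 424, 492 and 555 in YAP KD, which overlapped once scaled, at 10.2, 9.38 and 10.2 CPM against 10.01, 11.2 and 10.3 CPM. In CTR OE it had 563, 529 and 550 expected counts and in YAP OE 622, 580 and 655, or 10.9, 10.9 and 10.5 CPM against 12.1, 13.3 and 11.7 CPM. There all YAP OE libraries were above all controls, with a log2 fold change of 0.20 (SE 0.0638, 95% interval 0.065 to 0.34), but the edgeR adjusted p was 0.145055.

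Dazl encodes an RNA-binding protein that germ cells need to enter and pass through meiosis (chromosome 17, 50279393 to 50293620). Its expected counts were 352, 375 and 380 in CTR KD and 334, 336 and 400 in YAP KD, and the log2 fold change was 0.024 (SE 0.0712, 95% interval -0.14 to 0.18). In the overexpression they were 390, 360 and 355 in CTR OE and 399, 333 and 443 in YAP OE, or 7.54, 7.39 and 6.75 CPM against 7.76, 7.64 and 7.92 CPM. The scaled values did not overlap, though by a narrow margin, and the log2 fold change of 0.11 (SE 0.0726, 95% interval -0.049 to 0.26) did not pass, with an edgeR adjusted p of 0.593076.

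Tex101, a surface protein of male germ cells (chromosome 7, 24668012 to 24672050), showed the largest fold changes among the 9 genes on the fewest reads. It had 9, 14 and 10 expected counts in CTR KD against 11, 15 and 26 in YAP KD, and 23, 13 and 19 in CTR OE against 31, 24 and 42 in YAP OE. Scaled values overlapped in the knockdown, at 0.197 to 0.263 CPM against 0.26 to 0.485 CPM, and not in the overexpression, at 0.267 to 0.445 CPM against 0.551 to 0.751 CPM. The log2 fold change was 0.72 in YAP KD (SE 0.318, 95% interval 0.0066 to 1.43, edgeR adjusted p = 0.249241) and 0.83 in YAP OE (SE 0.252, 95% interval 0.29 to 1.37, edgeR adjusted p = 0.123347). Both values were above 0, so Tex101 did not have opposite signs in loss and gain of YAP as Dnmt3l had. Summed over a group the counts were 33 in CTR KD (exact Poisson 95% interval 22.7 to 46.3) and 52 in YAP KD (38.8 to 68.2), and 55 in CTR OE (41.4 to 71.6) and 97 in YAP OE (78.7 to 118), where the intervals cover counting error only.

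With Mael, Ddx4 and Dazl, Tex101 made up the 4 of 9 genes whose YAP OE libraries all lay above their controls. Over all genes tested, 10.3% showed this.

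Asz1, which encodes a mitochondrial scaffold of the piRNA pathway (chromosome 6, 18050964 to 18109061), was barely read at all. It had 1, 1 and 1 expected counts in CTR KD, 1, 0 and 2 in YAP KD, 1, 2 and 2 in CTR OE and 4, 1 and 3 in YAP OE. The sums were 3 and 3 in the knockdown groups (exact Poisson 95% interval 0.619 to 8.77 for each), 5 in CTR OE (1.62 to 11.7) and 8 in YAP OE (3.45 to 15.8). The intervals overlap, and no difference was detectable at this depth. When no filter was applied, the log2 fold change was 0.053 (adjusted p = 0.991553 in edgeR, SE 1.15) in YAP KD and 0.65 (adjusted p = 0.846179 in edgeR, SE 0.910) in YAP OE, and the 95% intervals ran from -2.39 to 2.50 and from -1.17 to 2.48.

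Of the genes of the meiotic chromosome, Sycp3 (chromosome 10, 88459587 to 88473236) gave the tightest bounds. It had 1905, 1912 and 2094 expected counts in CTR KD and 1690, 1878 and 2138 in YAP KD, and 1944.85, 2052 and 2096.86 in CTR OE and 1885, 1769 and 2215 in YAP OE. The groups overlapped in both experiments, with a log2 fold change of 0.019 in YAP KD (SE 0.0682, 95% interval -0.13 to 0.17) and -0.034 in YAP OE (SE 0.0512, 95% interval -0.14 to 0.075). Its span overlaps that of Chpt1 by 3724 bases, and since the strand setting of the counting is not stated, reads there cannot be told apart. Chpt1 had 384 to 517 counts in the 12 libraries.

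Sycp1 encodes the transverse filaments that join paired chromosomes (chromosome 3, 102818499 to 102936100). It had 345, 229 and 297 expected counts in CTR KD and 223, 334 and 330 in YAP KD, and 330, 335 and 367 in CTR OE and 367, 301 and 334 in YAP OE. Its libraries spread widely in the knockdown, where the log2 fold change was 0.088 (SE 0.191, 95% interval -0.34 to 0.51), and less in the overexpression, at -0.020 (SE 0.0845, 95% interval -0.20 to 0.16). Hormad1 (chromosome 3, 95559677 to 95587863) had 328, 288 and 385 expected counts in CTR KD and 298, 308 and 395 in YAP KD, and 320, 359 and 355 in CTR OE and 360, 301 and 373 in YAP OE. The groups overlapped each time, with log2 fold changes of 0.065 (SE 0.125, 95% interval -0.21 to 0.34) and 0.019 (SE 0.0805, 95% interval -0.15 to 0.19). Both genes overlap an entry of another gene that the tables do not list, the pseudogene Gm33866 for Sycp1 and the lncRNA Gm40097 for Hormad1.

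The groups also overlapped for the other testis genes. Stk31, a Tudor-domain protein with a kinase-like domain (chromosome 6, 49395506 to 49469506), had 371, 324 and 436 expected counts in CTR KD and 364, 377 and 508 in YAP KD, and the log2 fold change was 0.21 (SE 0.126, 95% interval -0.077 to 0.49). It had 419, 400 and 365 in CTR OE and 429, 368 and 458 in YAP OE, with 0.10 (SE 0.0772, 95% interval -0.062 to 0.27). The pseudogene Gm17060 lies within its span. Slc25a31, the ADP/ATP carrier of germ cell mitochondria (chromosome 3, 40708871 to 40726094), had 42, 58 and 44 expected counts in CTR KD and 50, 56 and 55 in YAP KD, with 0.24 (SE 0.163, 95% interval -0.12 to 0.61). In the overexpression it had 60, 56 and 56 against 58, 62 and 73, with 0.19 (SE 0.156, 95% interval -0.15 to 0.52). Neither gene passed the test in either experiment.

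**Figure D5:**
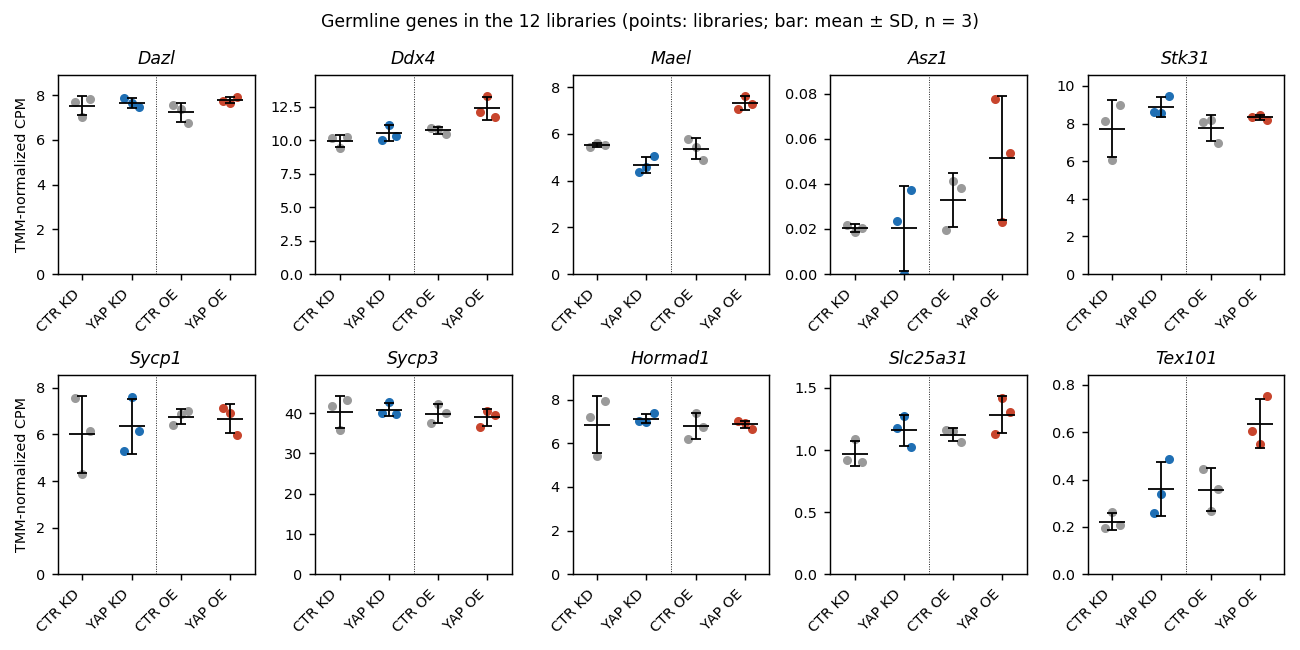
TMM-normalized CPM (y axis, from 0, with its own scale in each panel) of the 10 germline genes in CTR KD, YAP KD, CTR OE and YAP OE (x axis), with a point for each library and a bar for the mean ± SD (n = 3). Mael, Ddx4, Dazl and Tex101 have all YAP OE points above their CTR OE points, and only Mael has all YAP KD points below its controls.

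Read as a group, the 9 genes had mostly positive fold changes in both experiments, the largest in Tex101, at 0.72 in YAP KD and 0.83 in YAP OE. In YAP KD 8 of 9 log2 fold changes were above 0, with a median of 0.082, against 7571 of 14606 and a median of 0.0058 over all genes tested. In YAP OE 7 of 9 were above 0, with a median of 0.11, against 7206 of 14804 and a median of -0.0025. Among genes below 10 CPM, 49.5% were above 0 in YAP KD and 53.2% in YAP OE. In each experiment 6 of the 9 genes had a 95% interval within 0.5 log2 units either side of 0. One control library weighed on the knockdown: CTR KD replicate 2 was the lowest of its group for 7 of the 10 genes, and without it the log2 fold changes of Dazl, Sycp1, Sycp3 and Hormad1 turned to -0.024, -0.11, -0.059 and -0.085, none of them called. Mael stayed below 0 without it, at -0.23, so that positive values were no longer the majority of the 9 genes.

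Other genes of the same pathways were read from lists of 17 piRNA pathway genes, 22 meiosis genes and 25 further germline genes known to depend on methylation. In YAP KD 0 of 15, 1 of 18 and 2 of 19 genes tested were called by edgeR, all higher, and 3, 3 and 8 had an unadjusted p under 0.05. They were Syce2, a central element protein of the synaptonemal complex, at 0.20 (SE 0.0397), and the X-linked homeobox genes Rhox6 at 0.45 (SE 0.0911) and Rhox9 at 0.38 (SE 0.0780), which share reads with each other or further copies, as their counts were whole in none of the 12 libraries. In YAP OE 1 of 15, 0 of 18 and 0 of 19 were called, with 4, 6 and 5 at an unadjusted p under 0.05. The call was Mov10l1, an RNA helicase that binds piRNA precursors. It had 6.01 ± 0.373 CPM in CTR OE and 7.49 ± 0.257 in YAP OE, and the log2 fold change was 0.32 (adjusted p = 0.0447142 in edgeR, SE 0.0770). This call was lost without each library in turn, with DESeq2, in the fit over all 12 libraries and with the replicate block. Over all genes tested, 5.49% and 2.13% were called, and 2868 of 14606 and 1945 of 14804 had an unadjusted p under 0.05.

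These lists had medians above 0 in YAP OE, at 0.13, 0.16 and 0.16, with 12 of 15, 16 of 18 and 15 of 19 genes above 0. In YAP KD their medians were -0.048, -0.018 and 0.019, with 4 of 15, 9 of 18 and 11 of 19 above 0. Among all genes tested, 7206 of 14804 were above 0 in YAP OE, with a median of -0.0025. In YAP KD these were 7571 of 14606, with a median of 0.0058. When the difference between the experiments was tested, 2 of 16 piRNA genes were called, Mov10l1 at 0.42 (SE 0.124) and Piwil4, an Argonaute of fetal germ cells, at -1.34 (SE 0.380), as was 1 of 19 meiosis genes, Syce2 at -0.27 (SE 0.0590), and 2 of 20 further germline genes, Rhox5 at 0.24 (SE 0.0670) and Pramef12 at 0.35 (SE 0.0806). Over all genes tested 8.8% were called, so these lists stood near the background. Syce2 and Pramef12 were called under every alternative and without each library. No piRNA gene was called with DESeq2, with the replicate block, or when CTR KD replicate 2, any 1 of the YAP KD libraries, CTR OE replicate 1 or 2 or YAP OE replicate 1 or 2 was left out. Rhox5 was lost with the replicate block and when CTR KD replicate 3, YAP KD replicate 1 or 2, any 1 of the CTR OE libraries or YAP OE replicate 1 or 3 was left out. When CTR KD replicate 2 was left out, 4 meiosis genes were called. Piwil4, Rhox5 and Pramef12 are named because the count was small and were chosen after their values were seen.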

How the data were processed

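RNA of 12 libraries of mouse ESCs was analysed. The authors aligned reads with STAR to mm10 and quantified curated RefSeq genes with RSEM, and used edgeR, with versions and strand setting not given in the sources used here. The deposited expected counts are not normalized and were used for all tests after rounding to whole numbers. TPM and FPKM as deposited by the authors were summed per library as a check and not used otherwise. Length and effective length come from the same tables.

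The 6 libraries of an experiment were fitted together with edgeR 4.0.16 (R 4.3.3), using filterByExpr, TMM factors, the two-sided quasi-likelihood F test and Benjamini-Hochberg adjustment over all genes kept, with a threshold of 0.05. The difference between experiments was an interaction over 12 libraries. The script was tested on simulated data. Alternatives were other scaling and filters, DESeq2 1.42.0, limma-voom (limma 3.58.1), a fit over all libraries, an effective length offset, a replicate block and leaving out each library.

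Genes were named by rule: the 10 genes, Yap1, Dnmt3l and genes of the lists called in either experiment. The members and lists were chosen with earlier results of these data known. Gene positions and promoter windows come from RefSeq (GRCm38.p6), the assembly of mm10. Chi-square divided by its degrees of freedom lay between 3.54 and 25.7 for pairs of replicates over genes, above sampling noise, so each library counted as 1 sample. Expected counts of the 10 genes ranged from 0 for Asz1 to 2215 for Sycp3, and precision depended on the spread between libraries as well as on counts. In the knockdown, Dazl had an SE of 0.0712 and Sycp1, with counts of the same order, 0.191.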

Additional observations from a re-analysis of the deposited data

Results flagged for a closer look

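Mael was singled out because its response differed between the experiments in a direct test: the log2 fold change was -0.24 in YAP KD and 0.45 in YAP OE, a difference of 0.69 (SE 0.113, edgeR adjusted p = 0.00120332). It was higher in 3 of 3 YAP OE libraries and lower in 3 of 3 YAP KD libraries than in every control of the same experiment. No explanation was tested.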

How the results depend on the processing

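No call among the 9 germline genes was made in YAP KD under any of the 15 alternatives. In YAP OE the call of Mael held under all 9 alternatives that kept every library (edgeR, DESeq2 or limma adjusted p from 0.000285916 to 0.0164447), and leaving out 1 library gave between 0 and 1 call, with 0 without CTR OE replicate 3. The difference for Mael stayed called in all 8 such alternatives and in all 12 fits without 1 library. Correlations between same-numbered samples ran from -0.29 to -0.0082 in the knockdown and from 0.018 to 0.047 in the overexpression. Between unlike numbers they ran from -0.14 to 0.26 and from -0.044 to 0.022. Expression was centred within groups of 3 libraries first, so this check cannot exclude a pairing. With the replicate block, 193 genes were called in YAP KD in place of 802, 280 in YAP OE in place of 316 and 784 in the difference in place of 1325, and Mael kept its calls in YAP OE and in the difference.

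Calls among the genes of the piRNA, meiosis and further germline lists were less stable. The 3 calls in YAP KD became 5 in a fit over all 12 libraries and 0 with the replicate block, and ranged from 0 to 6 without 1 library: 0 if CTR KD replicate 1 or 3 or YAP KD replicate 1 or 3 was left out, 1 without YAP KD replicate 2 and 6 without CTR KD replicate 2. The calls added without CTR KD replicate 2 were Meioc, Sycp2 and Tex15, which had -0.31, -0.43 and -0.24 with every library kept. Those added in the fit over all 12 libraries were Meioc and Dkkl1, which had 1.34 in the first fit. These genes are named after their values were seen. The 1 call in YAP OE became 6 with no filter and 0 with DESeq2, in the fit over all 12 libraries and with the replicate block, and ranged from 0 to 4 without 1 library: 0 if CTR OE replicate 1 or 2 or YAP OE replicate 1 or 3 was left out, and 4 without YAP OE replicate 2. Without 1 library, the calls in YAP OE were of genes other than Mov10l1. The cause was not tested.

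Some signs of genes that were not called turned. With the effective length offset Hormad1 in YAP OE had -0.0034. Without 1 library, 24 of 216 fits turned sign, and the ranges were -0.024 to 0.055 for Dazl in YAP KD, -0.11 to 0.28 for Sycp1 in YAP KD, -0.075 to 0.054 in YAP OE and -0.30 to 0.089 in the difference. They were -0.059 to 0.073 for Sycp3 in YAP KD, -0.075 to 0.0077 in YAP OE and -0.11 to 0.023 in the difference, and -0.085 to 0.19, -0.042 to 0.080 and -0.17 to 0.10 for Hormad1. In the difference they were -0.15 to 0.035 for Slc25a31, -0.062 to 0.41 for Tex101 and -0.23 to 0.048 for Stk31. No such value was called. Tex101 was left out of both experiments by a filter of 1 CPM in 3 libraries and had no adjusted p from DESeq2 in the knockdown. Depth limits Asz1 and Tex101.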

Other observations

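Genes that specify primordial germ cells, in which the germline program is later switched on, were read from a list of 10, and all 10 were tested. The list was chosen with earlier results of these data known, so its counts of calls are not independent of the data. In YAP KD 3 were called, all higher, against 5.49% of all genes tested. Tfap2c, a transcription factor that is also active in trophoblast, rose from 57.3 ± 3.15 to 79.3 ± 4.78 CPM (log2 fold change 0.47, adjusted p = 0.00216602 in edgeR, SE 0.0570). Nanos3, an RNA-binding protein that keeps germ cells alive, rose from 1.19 ± 0.147 to 1.91 ± 0.0438 CPM (0.68, adjusted p = 0.0209944 in edgeR, SE 0.138), and its partner in this role, Dnd1, rose from 10.8 ± 0.744 to 13.8 ± 0.937 CPM (0.36, adjusted p = 0.0233477 in edgeR, SE 0.0735). All 10 had an unadjusted p under 0.05 in YAP KD, against 2868 of 14606 genes tested. Of the log2 fold changes 7 of 10 were above 0, against 7571 of 14606 over all genes tested. Below 0 were Prdm1 at -0.18 (SE 0.0502), Ifitm3 at -0.13 (SE 0.0462) and Dppa3 at -0.12 (SE 0.0509), none of them called. They are named after their values were seen. Counts of calls under other settings were added after seeing the data. Without 1 library the calls in YAP KD numbered 1 to 4: Tfap2c was called each time, and it was the single call without CTR KD replicate 3 or without any 1 of the 3 YAP KD libraries, as it was with the replicate block, while leaving out CTR KD replicate 1 gave 2 calls and leaving out CTR KD replicate 2 gave 4. The call added without CTR KD replicate 2 was Prdm1. A fit over all 12 libraries called 5, with Prdm1 and Elavl2 added. In YAP OE 0 of 10 were called by edgeR with TMM factors and the filter, but Ifitm1 was called with relative log expression factors, with the replicate block, by DESeq2, by limma-voom and without YAP OE replicate 3, and with no filter Ifitm1 and Tfap2c were. As first fitted, 7 had an unadjusted p under 0.05, against 1945 of 14804 genes tested. All 10 log2 fold changes were below 0, with a median of -0.13, against 7598 of 14804 below 0 over all genes tested. The difference between the experiments was called for 7 of 10, all below 0, from -0.25 for Prdm14, named as the end of this range, to -1.07 for Nanos3, against 8.8% of all genes tested. It was called for 5, without Prdm14 and Elavl2, when CTR OE replicate 3 was left out and with the replicate block, and for 6 or 7 without any other library. Mael and Dnmt3l had differences above 0.

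Among 19 factors of the PRC1.6 complex and of H3K9 methylation, which repress many germline genes, 1 was called in YAP KD, Tfdp1, the DP1 partner of E2F proteins, which rose from 113 ± 2.54 to 139 ± 2.95 CPM (log2 fold change 0.30, adjusted p = 0.00299948 in edgeR, SE 0.0396). This share was near the 5.49% of all genes tested, and the call of Tfdp1 held without each library in turn. In YAP OE 0 of 19 were called by edgeR, DESeq2 or limma-voom, and 1 had an unadjusted p under 0.05, against 1945 of 14804 genes tested. The difference was called for 2 of 19, Tfdp1 and E2f6, near the 8.8% of all genes. E2f6, the E2F of this complex, passed the test of the difference at 0.28 (adjusted p = 0.012411 in edgeR, SE 0.0652) and in neither experiment by itself, lost the call with the replicate block, and was singled out after its values were seen.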
